A study of Mus musculus with 24 samples.

Results

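The comparison described here is the loss of MITF in B16-F10 mouse melanoma cells that already lack TFEB, measured as the MITF/TFEB DKO line against the TFEB KO line. Its members are 6 of the 24 messenger RNA libraries of the study, 3 of each line, and all 12010 genes of the deposited table were tested. B16-F10 is a pigmented melanoma line from the C57BL/6 mouse, and the cells used here carry the luc2 luciferase reporter. The TFEB KO was made with CRISPR-Cas9 in the parental cells and still has MITF and TFE3. The MITF/TFEB DKO was made by knocking out TFEB in an MITF KO line with a frameshift in Mitf and still has TFE3. Both lines were grown in the same medium with serum, with no other treatment. Each is a clonal isolate, and the MITF KO from which the DKO came may still make a low level of truncated MITF, according to the study. Loss of MITF and the history of the clone therefore cannot be told apart in this comparison. The labels do not say whether the 3 libraries of a line came from separate cultures, so p-values measure the spread between these libraries only.

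MITF, TFEB and TFE3 are closely related basic helix-loop-helix leucine zipper transcription factors that bind E-box sequences as dimers. MITF drives the pigment genes of melanocytes and many genes of melanoma cell growth and metabolism, while TFEB and TFE3 are best known for genes of lysosomes and autophagy and are held in the cytoplasm by mTORC1 when nutrients are plentiful. In melanoma, low MITF is known to go with an undifferentiated state in which cells divide slowly and invade.

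The TFEB guide and the promoter stretches below are shown because they carry the edit and the DNA letters found in pigment and interferon genes, which went in opposite directions. The guide matches the mouse genome once, at chr17:48097370-48097389 of GRCm39 on the plus strand, in coding exon 3 of Tfeb (48097203 to 48097457), and the capitals mark the PAM next to it.
Tfeb guide and PAM: tggacacgtactgtccacctCGG
Sequencing started from the 3′ ends of the messenger RNAs, far from exon 3, so the number of Tfeb reads does not check this edit. Tfeb stood at 3.06, 2.64 and 3.86 CPM (read counts scaled to library size) in the MITF/TFEB DKO, against 3.67, 2.06 and 2.92 in the TFEB KO, and the libraries overlapped. Mitf, edited by a frameshift and still transcribed, stood at 603, 544 and 594 CPM in the DKO and at 886, 646 and 873 in the TFEB KO, a difference of -0.45 on the log2(CPM + 1) scale (standard error 0.094, limma adjusted p = 2.9e-04). Tfe3, the family member left in both lines, stood at 56.3, 62.5 and 50.3 CPM in the DKO and at 40.6, 31.1 and 35.4 in the TFEB KO, a difference of 0.65 (standard error 0.16, limma adjusted p = 0.0013). None of the 3 differed by as much as 2-fold.

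Promoters from RefSeq (GRCm38.p6, from 250 bases before to 50 after the start of a gene) were found for 9647 of the 12010 genes, with 1 start taken for each gene. In the pigment genes Tyr (tyrosinase, the rate-limiting enzyme of melanin synthesis), Mc1r (the melanocortin receptor), Tspan10 (a tetraspanin) and Trpm1 (a cation channel), all of which fell, the letters CATGTG or, on the other strand, CACATG are in capitals.
Tyr, chr7:87493513-87493572, minus strand: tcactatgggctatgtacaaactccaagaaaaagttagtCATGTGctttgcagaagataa
Mc1r, chr8:123406993-123407052, plus strand: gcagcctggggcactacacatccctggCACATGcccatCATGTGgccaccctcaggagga
Tspan10, chr11:120442571-120442630, plus strand: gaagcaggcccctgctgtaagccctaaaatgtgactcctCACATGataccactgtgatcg
Trpm1, chr7:64153667-64153726, plus strand: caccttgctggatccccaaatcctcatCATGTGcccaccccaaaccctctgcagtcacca
One of these hexamers was in 8 of 20 pigment gene promoters (40%) and in 8.22% of all promoters of the same length. The promoters of Tyrp1 and Dct, which missed the 2-fold threshold, held it too. A hexamer of this kind was also in 9 of 50 interferon-stimulated gene promoters (18%), and in 6 of 30 of called genes (20%). Among the genes called lower after loss of MITF the share was 7.53%, and among those called higher 8.25%. The palindromic E-box CACGTG, the same letters on both strands, was in 10.2% of all promoters, 9.07% of those called lower and 8.82% of those called higher. Over the called genes as a whole, the shares of both hexamers were thus close to those of all promoters.

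In the interferon genes Stat2 (a transcription factor of the interferon signal), Phf11b, Ifi203 and Mndal, all of which rose, a repeat of GAAA with any 2 bases between its copies, or of TTTC on the other strand, is in capitals. It is the core of the interferon-stimulated response element.
Stat2, chr10:128270249-128270308, plus strand: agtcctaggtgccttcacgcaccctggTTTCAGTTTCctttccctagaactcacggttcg
Phf11b, chr14:59341348-59341407, minus strand: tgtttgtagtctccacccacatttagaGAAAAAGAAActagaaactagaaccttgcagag
Ifi203, chr1:173942495-173942554, minus strand: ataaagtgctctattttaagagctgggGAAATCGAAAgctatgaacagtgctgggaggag
Mndal, chr1:173879980-173880039, minus strand: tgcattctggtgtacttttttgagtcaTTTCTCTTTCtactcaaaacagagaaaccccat
This pattern was in 28 of the 50 interferon-stimulated gene promoters (56%) and in 2.95% of all promoters. Of the 30 promoters whose interferon-stimulated genes were called, 14 held it (46.7%), a lower share than in the whole list. The promoter of Apol9b, which missed the 2-fold threshold at 0.90, held it too. It was in 6.87% of the promoters of genes called higher and in 3.67% of those called lower. A match to these letters is a description and not a bound site.

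A gene was called at a difference of at least 2-fold on the log2(CPM + 1) scale and an unadjusted p under 0.05 in limma, the thresholds of fold and p that the study used. Loss of MITF without TFEB raised 1119 of 12010 genes (9.32%) and lowered 642 (5.35%), together 14.7%, and 1117 and 642 of these had a Benjamini-Hochberg adjusted p under 0.05. The differences reached 8-fold for 85 genes that rose and 35 that fell. All 3 DKO libraries lay above all 3 TFEB KO libraries for 1105 of the genes called higher, and below them for 639 of those called lower, where 30.2% and 28% of all genes were separated in these ways. Of the genes called higher, 115 had at most 3 reads in every TFEB KO library, and 31 of those called lower had at most 3 in every DKO library. Over all genes these numbers were 146 for the TFEB KO and 59 for the DKO. The gene filter is not given, so a gene with few reads in a line may be listed for its level in other lines. The reads on genes ran from 20034773 to 24749867 in the 6 libraries, and 1 read was worth 0.0392 to 0.0532 CPM. The edgeR test on the recovered reads, which shrinks low genes less, called 1430 genes higher and 907 lower.

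The largest fall was that of Lgals3, which encodes galectin-3, a sugar-binding protein of the cytoplasm and cell surface. It stood at 343, 296 and 339 CPM in the TFEB KO and at 0.0784, 0.252 and 0.239 in the DKO, a fall by 8.10 on the log2(CPM + 1) scale (standard error 0.11, limma adjusted p = 1.7e-24). Every DKO library held it near the limit of detection. Car14, a membrane carbonic anhydrase, stood at 505, 379 and 417 CPM in the TFEB KO against 17.1, 11.6 and 11.9 in the DKO. Eps8, which caps and bundles actin filaments, stood at 394, 289 and 353 CPM against 14.3, 10.7 and 12. Fam111a, a protease of replication and antiviral restriction, stood at 51.7, 58.2 and 61.4 CPM against 0.627, 1.55 and 1.15. The libraries of the 2 lines were far apart for each of these genes. Separated libraries were a condition for a place among the largest falls and rises. The other genes among the 10 largest falls were Mgarp (a fall by 4.90), Ssbp4 (4.75), Mgll, the lipase of monoacylglycerols (4.46), Fkbp10, a chaperone of collagen (4.42), Nfasc, the adhesion protein neurofascin (4.12), and St6gal1, a sialyltransferase (4.06). Fkbp10 had at most 3 reads in each DKO library and was at least 175-fold lower when the mean of the TFEB KO was set against a floor of 3 reads per library. The last 500 bases of Car14 and of Fkbp10 overlap a gene on the opposite strand, Aph1a and Nt5c3b, and whether the counting used strand is not given in the sources used here. The same holds for Cfap100, Ccnd1, Slc16a3, Stat3 and Me1.

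The largest rise was that of Acta2, smooth muscle alpha-actin, listed at 0 in all 3 TFEB KO libraries and at 205, 159 and 129 CPM in the DKO, at least 1132-fold higher against the same floor (limma adjusted p = 3.7e-19). Dbh, which makes noradrenaline from dopamine, was also at 0 in the 3 TFEB KO libraries and at 129, 131 and 116 CPM in the DKO, at least 861-fold higher. Sorbs2, an adaptor of actin and adhesion sites, stood at 107, 106 and 119 CPM in the DKO and at 0.106, 0.228 and 0.278 in the TFEB KO. Acta2 and Dbh were thus without a read in one line and moderately expressed in the other. Rhox5, an X-linked homeobox gene, stood at 252, 250 and 243 CPM in the DKO against 2.98, 2.28 and 1.67. Apod, a lipid carrier, stood at 113, 106 and 104 CPM against 0.745, 1.05 and 0.555. Ifi27l2a, an interferon-stimulated gene, stood at 125, 137 and 118 CPM against 0.106, 0.457 and 0.648. The remaining genes among the 10 largest rises were Gal3st2, a sulfotransferase (5.94), Abca8a, a lipid transporter (5.37), Lims2, a partner of integrin-linked kinase (5.20), and Cfap100, a protein of cilia (5.11), each given as a difference on the log2(CPM + 1) scale. Gal3st2 was at 0 in all TFEB KO libraries, and was at least 416-fold higher.

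**Figure D1:**
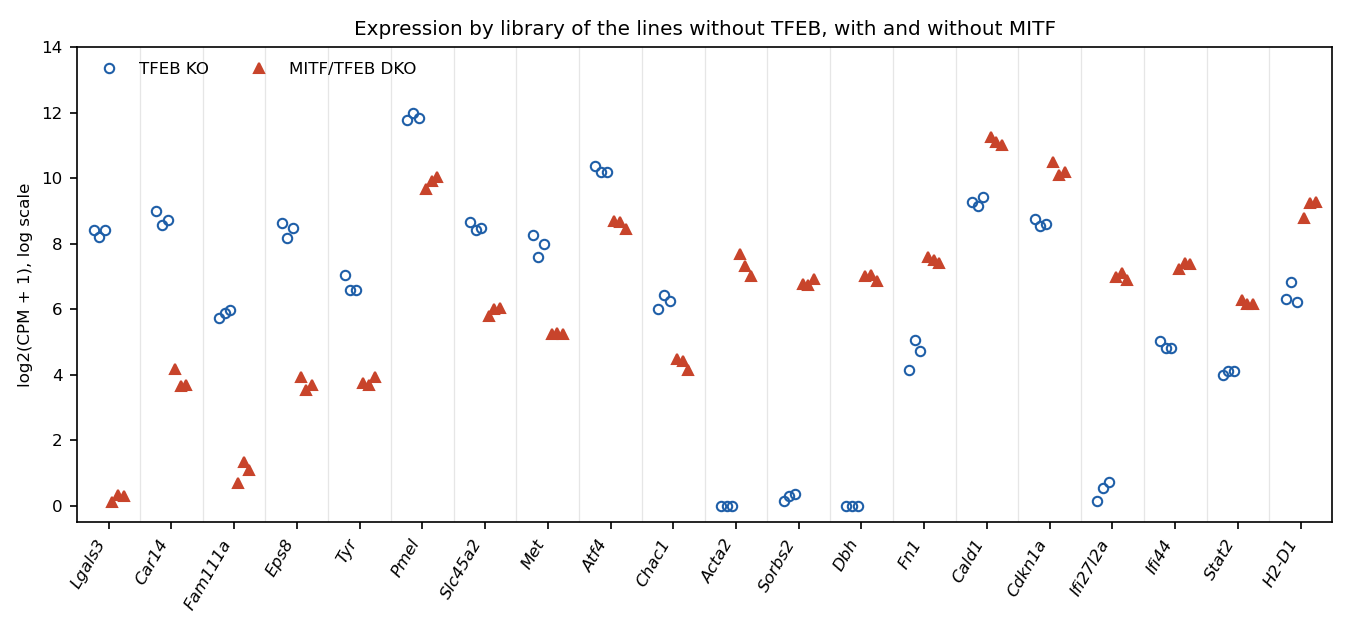
Level of 20 genes on a log2(CPM + 1) axis in the 3 TFEB KO libraries (open circles) and the 3 MITF/TFEB DKO libraries (triangles), 1 symbol per library. No gene shown has overlapping libraries: Lgals3, Car14, Fam111a, Eps8, Tyr, Pmel, Slc45a2, Met, Atf4 and Chac1 sit lower in the DKO and the other 10 higher, with Acta2 and Dbh at 0 in the TFEB KO.

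Many pigment genes fell. Of 28 pigment enzyme and melanosome genes in the table, 14 were called lower, 0 higher and 14 were not called, with a median difference of -0.96 beside 0.026 over all genes. Tyr stood at 131, 94.3 and 94.3 CPM in the TFEB KO and at 12.5, 11.8 and 14.1 in the DKO, a fall by 2.95 on the log2 scale (standard error 0.15, limma adjusted p = 6.8e-14). Pmel, which forms the amyloid fibrils of the melanosome, stood at 3518, 4079 and 3685 CPM in the TFEB KO and at 813, 970 and 1038 in the DKO. Slc45a2, a transporter of the melanosome membrane, stood at 403, 338 and 359 CPM in the TFEB KO and at 54.6, 62.8 and 64.8 in the DKO. The 2 lines did not overlap for any of these 3 genes. Tspan10 fell by 3.37, and Mc1r stood at 406, 283 and 332 CPM against 83.6, 91.1 and 92.2. The enzymes that act after tyrosinase missed the 2-fold threshold: Tyrp1 differed by -0.90 (standard error 0.099, limma adjusted p = 5.7e-08) and Dct by -0.37 (standard error 0.11, limma adjusted p = 0.0077). Rab38, a small GTPase of melanosome cargo, overlapped between the lines at -0.21. The last 500 bases of Pmel overlap Dgka on the opposite strand, which had a mean of 12.6 CPM in the DKO and 0.993 in the TFEB KO.

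Both lines expressed the 7 markers taken to define the melanocyte lineage. Dct stood at 13265, 15004 and 15385 CPM in the DKO against 20591, 17175 and 18634, and Sox10, a transcription factor of the lineage, at 1121, 1051 and 986 against 828, 748 and 872. Of the 7, 3 (Tyr, Pmel and Mlana) were called lower. Of 22 genes that the study named as bound by MITF and that are therefore no independent choice, 14 were called lower and 0 higher, with a median of -1.35. Beside the pigment genes they included Ngfr, the low-affinity nerve growth factor receptor and a marker of neural crest-like melanoma cells, at 12.9, 18 and 15.7 CPM in the TFEB KO against 0.431, 1.09 and 0.159 in the DKO. Met, the receptor of hepatocyte growth factor, stood at 304, 190 and 252 CPM against 36.7, 37.6 and 36.7. Both receptors were lower in each DKO library than in any TFEB KO library. Hk2, the first enzyme of glycolysis in many tumours, stood at 409, 273 and 386 CPM against 89.2, 87 and 87.1, and Ppargc1a, the coactivator PGC1-alpha of mitochondrial biogenesis, at 231, 160 and 197 against 65.7, 50.5 and 50.7. Scd1, which introduces the double bond of oleate, fell by 1.94. Axl, a receptor kinase of the invasive state that is not in this list, stood at 38.9, 33.2 and 34.3 CPM in the TFEB KO against 78.2, 67.2 and 61.2 in the DKO. It differed by 0.94 and missed the threshold, which it reached without replicate 3 of the DKO (1.02) and also without replicate 1 of the TFEB KO.

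Genes of contraction and matrix rose more often than they fell. Of 18 contractile actin genes, 9 were called higher and 1 lower (median 1.04). Cald1, the actin-binding caldesmon, stood at 2443, 2206 and 2045 CPM in the DKO against 616, 568 and 690, and Cnn2, a calponin, rose by 2.88. Lmod1, a leiomodin of muscle, rose by 2.45. Of 33 collagens, laminins, integrins and matrix proteases, 13 were called higher and 1 lower (median 0.77). Fn1, fibronectin, stood at 190, 182 and 170 CPM in the DKO and at 16.6, 32.2 and 25.4 in the TFEB KO. Col6a3 and Col11a1, which had at most 3 reads in every TFEB KO library, were at least 45.6-fold and 31.9-fold higher. The member called lower was Itgb3, an integrin chain, at 38.8, 25 and 41.2 CPM in the TFEB KO against 3.76, 3.57 and 2.91 in the DKO. With a pseudocount of 5, or only genes with a mean of at least 5 CPM, the matrix members called higher numbered 7 and 8 in place of 13. The fibroblast markers in the table, Col1a1 and Col1a2 (2 of 7 listed), summed to 34.4 to 45.3 CPM in the DKO and 15.3 to 16.9 in the TFEB KO, and their part in the result was not tested.

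The invasive state genes moved both ways. Of 18 genes of the undifferentiated and invasive state, 9 were called higher and 4 lower (median 1.02), with 5 higher among genes of at least 5 CPM. Thbs1, thrombospondin-1, stood at 17.4, 13.4 and 15.7 CPM in the DKO and at 0.692, 0.777 and 1.02 in the TFEB KO, while Lgals3, Ngfr and Met of the same list fell. Of 21 TGF-beta and BMP response genes, 7 were called higher and 1 lower (median 0.72). All 3 ligands rose: Tgfb2 stood at 101, 92.9 and 84.9 CPM in the DKO against 10.9, 10.8 and 12.9, Tgfb3 rose by 2.24, and Tgfb1, with at most 3 reads in each TFEB KO library, was at least 16-fold higher. The related inhibitors of basic helix-loop-helix factors Id2 and Id3 went opposite ways. Id2 stood at 663, 406 and 480 CPM in the TFEB KO and at 98.4, 103 and 91.2 in the DKO. Id3 stood at 11, 12.7 and 8.75 CPM in the TFEB KO and at 30.8, 59.8 and 63.6 in the DKO. The last 500 bases of Tgfb2 and Tgfb3 overlap Gm35546 and Ttll5 on the opposite strand, and Gm35546 itself had a mean of 6.93 CPM in the DKO and 0.0152 in the TFEB KO.

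Of 19 MAPK output and feedback genes, 7 were called lower and 3 higher (median -0.73). With only genes of at least 5 CPM these were 4 and 1, and with a pseudocount of 5 the members called higher numbered 0. Dusp4, a phosphatase of ERK, stood at 36.2, 33.2 and 32.7 CPM in the TFEB KO and at 3.33, 3.48 and 3.11 in the DKO, and the ETS factors Etv1 and Etv4 each fell by 2.54. Of 12 WNT target and feedback genes, 4 were called lower and 2 higher (median -0.45), with the transcription factor Tcf7l1 lower by 1.92 and the receptors Fzd2, of WNT, and Lgr4, of R-spondins, higher by 1.61 and 1.46. In 16 melanoblast and neural crest transcription factors, 4 were called higher and 1 lower (median 0.39), and Tfap2b and Sox4 were among those higher, by 1.73 and 1.23.

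A minority of cell cycle genes fell. Of 63 DNA replication and S phase genes, 9 were called lower and 0 higher (median -0.57). In every DKO library 43 of the 63 were lower than in any TFEB KO library, where the share over all genes was 28%. Rrm2, a subunit of ribonucleotide reductase, stood at 336, 433 and 376 CPM in the TFEB KO and at 88.7, 103 and 102 in the DKO, and Mcm10, a replication initiation factor, at 81, 73.7 and 87.7 against 19.6, 19.8 and 22.3. Of 54 mitotic genes, 5 were called lower and 0 higher (median -0.34), where 5.35% and 9.32% of all genes were called in these directions. Cdc25b, a phosphatase that activates mitotic kinases, was lower by 1.55. Among 21 G1 cyclins, their kinases and inhibitors, 3 were called higher and 2 lower. Cdkn1a, which encodes the CDK inhibitor p21, stood at 1425, 1097 and 1154 CPM in the DKO and at 432, 369 and 390 in the TFEB KO. Cdkn1c, the inhibitor p57, stood at 13.5, 20.9 and 15.6 CPM against 2.08, 1.01 and 1.67. Ccnd1, cyclin D1, fell by 1.25 and Mdm2, the ligase that limits p53, rose by 1.26. Bbc3, the death-promoting protein PUMA, was the single member of 12 BCL2 family genes that was called by limma, higher by 1.76, while edgeR called 3. Set against the median of their 100 nearest genes, 5 S phase genes were called lower in place of 9, and Mdm2 was no longer called at 0.80. The mitotic genes Kif20b (-0.65), Cdca3 (-0.90) and Kif11 (-0.36) also lost the call in this way.

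Part of the ATF4 response fell. Of 30 genes of this response and of amino acid supply, 7 were called lower and 0 higher (median -0.60). Atf4, the transcription factor of the integrated stress response, stood at 1324, 1169 and 1176 CPM in the TFEB KO and at 409, 402 and 351 in the DKO, a fall by 1.66 (standard error 0.12, limma adjusted p = 3.3e-11). Chac1, which degrades glutathione, stood at 62.9, 85.5 and 75.6 CPM against 21.2, 20.2 and 16.8, and Trib3, a pseudokinase, at 66.9, 83.1 and 74.5 against 21.7, 25.5 and 20.6. Slc7a11, the cystine transporter, stood at 10.9, 19.1 and 14.3 CPM against 1.69, 2.52 and 2.95. All 4 were separated between the lines. Without replicate 1 of the TFEB KO, 11 members were called lower in place of 7. Of 33 glutathione, thioredoxin and NRF2 target genes, 4 were called lower and 1 higher (median -0.22). The glutathione transferase Gsta4 stood at 5.59, 6.44 and 7.73 CPM in the TFEB KO and at 0, 0 and 0.478 in the DKO, and Gstm1 fell by 1.37.

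Few lysosome and autophagy genes were called. Of 51 lysosomal hydrolases and membrane proteins, 3 were called higher and 1 lower (median 0.34): Ctso rose by 2.57, Ctsf by 2.03 and Lamp2 by 1.21, while Hpse, heparanase, fell by 1.49. At an unadjusted p under 0.05 in limma with no limit of fold, 28 members were higher and 9 lower, where 31.5% and 29.4% of all genes passed this threshold in the 2 directions. Among genes with a mean of at least 5 CPM, 1 lysosomal member was called higher in place of 3. Lamp2 was not called against its neighbouring genes, at 0.75. Of 17 V-ATPase subunits, 1 was called lower and 0 higher. Of 44 autophagy genes, 3 were called higher, among them Ulk2 by 1.46, and 1 lower. Of 35 mTORC1 nutrient sensing genes, 1 was called, Ddit4 (REDD1, an inhibitor of mTORC1), at 144, 176 and 165 CPM in the DKO and 76.9, 40.7 and 45.7 in the TFEB KO. Glycolysis genes numbered 2 higher and 2 lower of 24, with Eno3, muscle enolase, higher by 2.50 and the lactate transporter Slc16a3 lower by 2.34. Sterol and fatty acid synthesis genes numbered 3 higher and 3 lower of 39. This list and the glycolysis list were near the shares over all genes, 9.32% higher and 5.35% lower. Hsd17b7, an enzyme of cholesterol synthesis, stood at 56.6, 50.1 and 57.1 CPM in the DKO against 13.2, 12.2 and 12.1, while Me1, malic enzyme, fell by 1.38. Thrsp, a regulator of lipid synthesis with at most 3 reads in each TFEB KO library, was at least 52.7-fold higher in the DKO. Hypoxia response genes numbered 3 higher (Car12, Egln3 and Ankrd37) and 1 lower (Car9) of 19. All of these had means under 5 CPM in both lines. With a pseudocount of 5 they were not called, at 0.37, 0.53, 0.38 and -0.40. Egln3, Ankrd37 and Car9 also lost the call when 1 library was left out. Regulators of mitochondrial biogenesis numbered 1 lower of 13, which was Ppargc1a.

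Of 82 cytosolic ribosomal protein genes, 11 were called lower and 0 higher (median -0.57). In every DKO library 59 were lower than in any TFEB KO library, where the share over all genes was 28%. Rps7 stood at 1334, 1435 and 1403 CPM in the TFEB KO and at 534, 521 and 490 in the DKO. Rpl22l1, a paralog of Rpl22, fell by 1.67. Against their neighbouring genes 3 were called in place of 11, with Rps7 no longer called at -0.91, and without replicate 2 of the TFEB KO 7 were called. Of 78 mitochondrial ribosomal protein genes, limma called 0 at 2-fold and edgeR 1, while 49 were lower and 6 higher at an unadjusted p under 0.05 in limma with no limit of fold (29.4% and 31.5% of all genes), with a median of -0.30. Of 38 complex I subunit genes, 40 subunit genes of complexes II to V and 34 proteasome genes, 1, 1 and 2 were called lower and 0 higher.

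**Figure D2:**
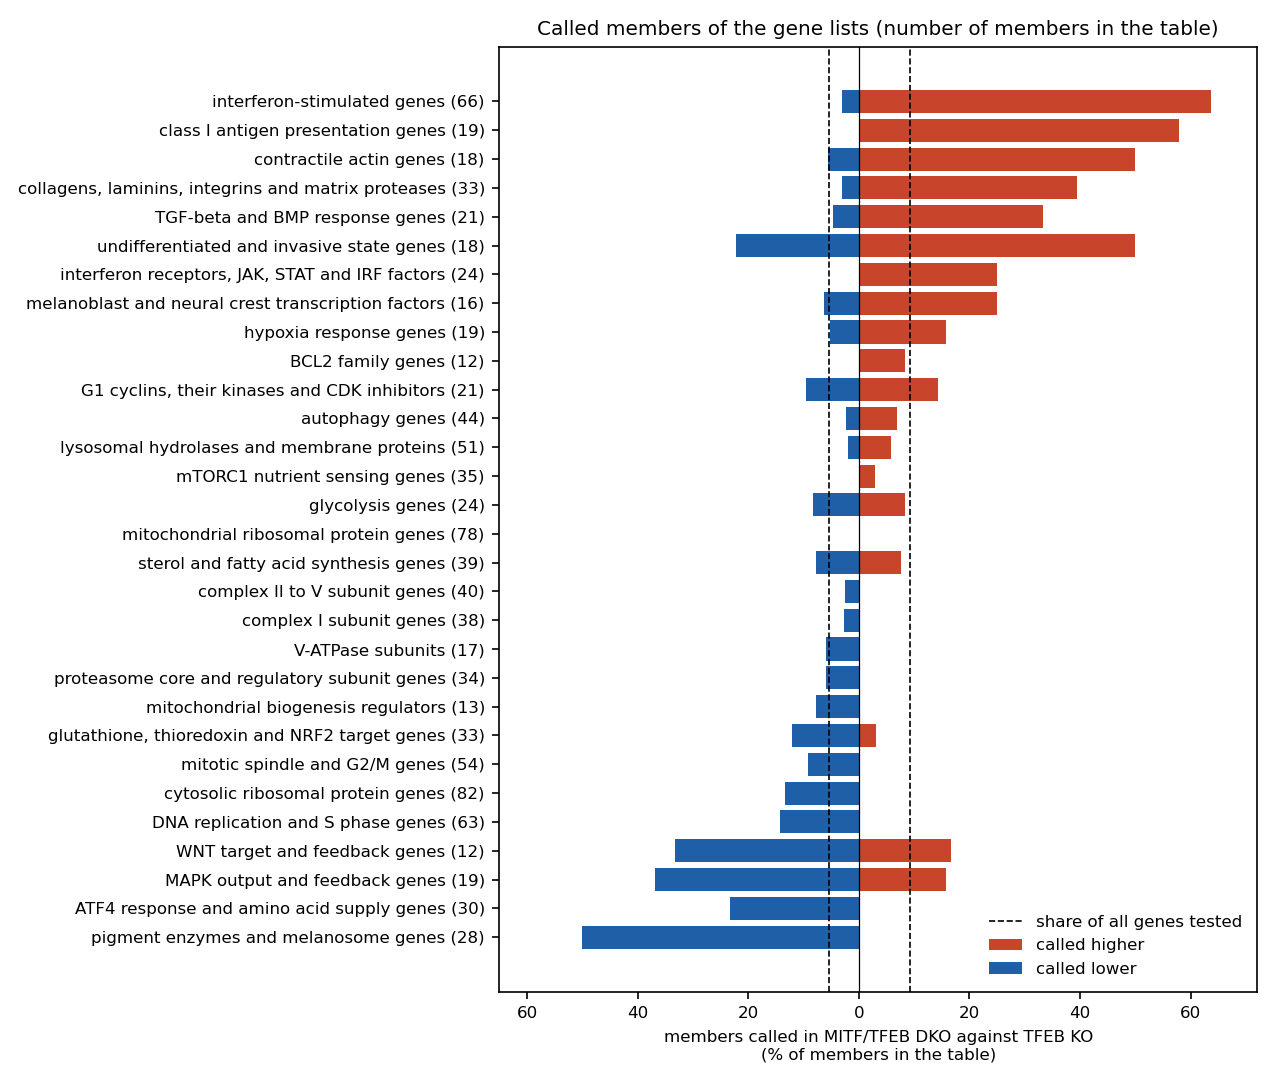
Share of the members of gene lists that were called lower (bars to the left) or higher (bars to the right) in the MITF/TFEB DKO against the TFEB KO, in percent of the members in the table, whose number stands in brackets. Dashed lines mark the shares over all 12010 genes, 5.35% lower and 9.32% higher; of the lists drawn, which leave out the cell type markers and the MITF-bound genes, interferon-stimulated genes reach farthest to the right (42 of 66) and pigment genes farthest to the left (14 of 28).

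Most interferon-stimulated genes rose after loss of MITF in the cells without TFEB. These genes, many of which block the replication of viruses, are switched on by type I interferon through the JAK and STAT proteins. Of 66 in the table, 42 were called higher, 2 lower and 22 were not called, with a median difference of 1.20. In every DKO library 59 were higher than in any TFEB KO library, where the share over all genes was 30.2%. Stat2 stood at 76.7, 70.6 and 70.7 CPM in the DKO and at 14.9, 16.2 and 16.3 in the TFEB KO, a rise by 2.13 (standard error 0.10, limma adjusted p = 3.4e-14). Of 24 interferon receptors, JAK, STAT and IRF factors, 6 were called higher and 0 lower (10 and 0 by edgeR), Stat3 among them at 263, 298 and 278 CPM against 103, 84.7 and 89.7. Zbp1, a sensor of Z-form nucleic acid, stood at 25.7, 28.3 and 28.8 CPM in the DKO against 1.7, 1.78 and 0.879, and Ifi44 at 148, 170 and 167 against 31.9, 27.1 and 27.3. Phf11b rose by 3.72 and Phf11d by 3.38. The 2 members called lower were Oasl1, at 1.37, 1.01 and 1.87 CPM in the DKO and 11.9, 12.8 and 12.9 in the TFEB KO, and Ifi27, at 405, 430 and 393 against 1022, 1068 and 1046. Ifi27 and Ifi27l2a lie on opposite strands, and the last 500 bases of Ifi27l2a overlap Ifi27. The immune markers in the table, Cd68 and Lyz2 (2 of 10 listed), summed to 3.37 to 5.12 CPM in the DKO and 0.319 to 1.34 in the TFEB KO, and their part in the result was not tested.

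Many genes of class I antigen presentation rose too. Of 19 genes of the class I pathway in the table, 11 were called higher and 0 lower (median 1.11). H2-D1, a class I heavy chain, stood at 443, 599 and 614 CPM in the DKO and at 78.7, 113 and 73.8 in the TFEB KO, a rise by 2.64 (standard error 0.18, limma adjusted p = 1.5e-11). Tapbp, tapasin of the peptide-loading complex, stood at 476, 347 and 311 CPM against 113, 84.1 and 108, Erap1, which trims peptides, at 16.3, 15.9 and 15.4 against 3.67, 3.11 and 4.4, and Nlrc5, the transactivator of class I genes, at 21.9, 28.5 and 21.9 against 5.54, 6.63 and 7.54. Psme2, a proteasome activator subunit, rose by 1.73. The libraries of the 2 lines did not overlap for the 4 genes given by library. H2 genes are close paralogs, and how reads shared between them were counted is not given in the sources used here. With a pseudocount of 5, 6 members were called higher, and with only genes of at least 5 CPM, 7. The last 500 bases of Erap1 overlap Cast on the opposite strand, which had a mean of 83.5 CPM in the DKO and 48.7 in the TFEB KO.

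Across the 8 lines of the study the interferon genes were high in the MITF/TFEB DKO and low in the MITF KO. Ifi44 had a mean of 161 ± 11.7 CPM (SD, n = 3) in the MITF/TFEB DKO, 147 ± 7.93 in the parental cells, 104 ± 7.22 in the MITF/TFE3 DKO, 55.2 ± 5.71 in the TFEB/TFE3 DKO, 28.8 ± 2.76 in the TFEB KO and 22.6 ± 2.17 in the TFE3 KO. It was at 0 in the 3 libraries of the MITF KO, the line in which TFEB was knocked out to make the DKO, and at 0.0729 ± 0.126 in the TKO, which lacks all 3 factors. The DKO and the parental cells were near each other, and the MITF KO and the TKO were both near 0. H2-D1 was at 552 ± 94.6 CPM in the DKO, 152 ± 10.7 in the parental cells, 114 ± 11.1 in the TKO, 88.5 ± 21.3 in the TFEB KO and 19.6 ± 4.27 in the MITF KO. Ifi27l2a, at 127 ± 9.9 CPM in the DKO, had a mean of at most 1.97 in every other line. All 3 DKO libraries lay above all 21 libraries of the other lines for 33 of the 66 interferon-stimulated genes and 10 of the 19 class I genes, and for 4.5% of all genes. Pigment genes differed in this: 17 of 28 were lower in the DKO than in every library of the other lines except the TKO, where the share over all genes was 9.58%, and Tyr, at 12.8 ± 1.16 CPM in the DKO, was at 8.35 ± 0.604 in the TKO and at 111 ± 8.5 in the MITF KO.

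**Figure D3:**
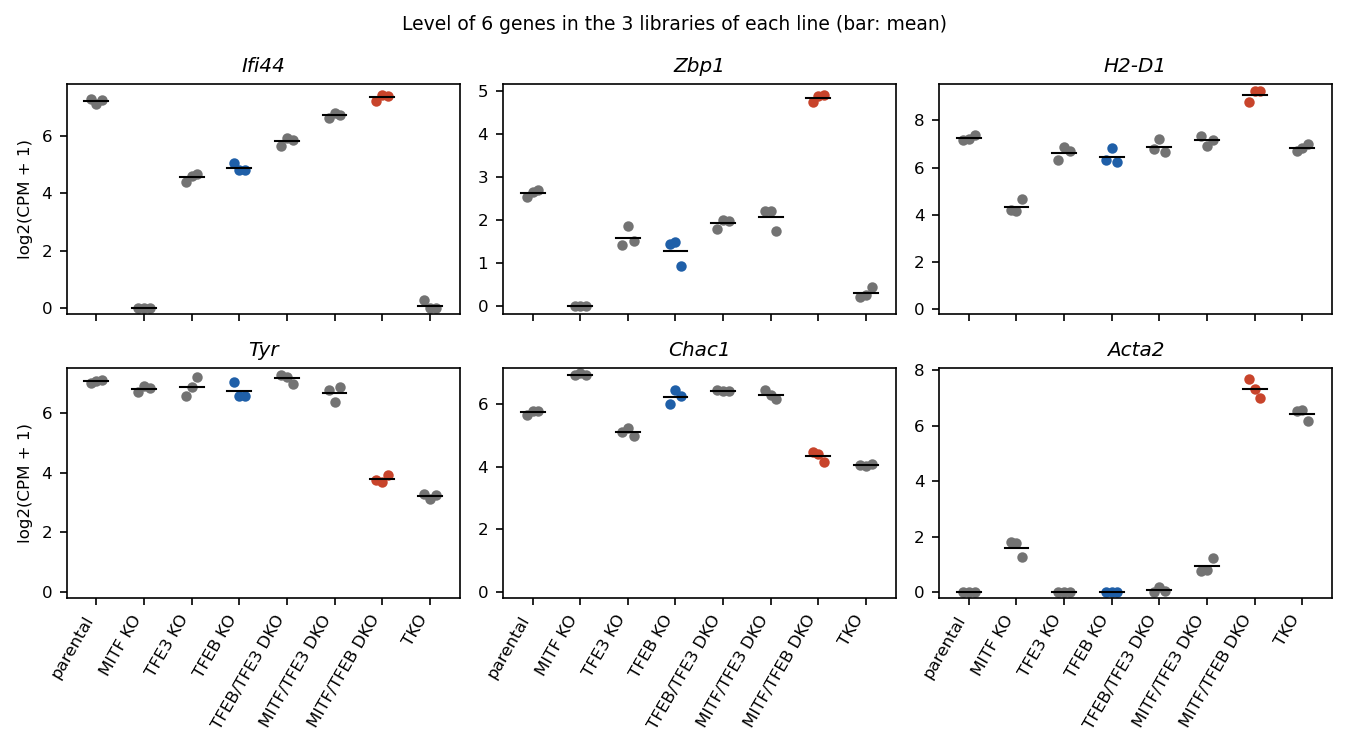
Level of 6 genes on a log2(CPM + 1) axis in the 3 libraries of each of the 8 lines (points; the bar is the mean), with the TFEB KO and the MITF/TFEB DKO in colour. Ifi44 is at or near 0 in the MITF KO and the TKO and high in the DKO and the parental cells, while Tyr and Chac1 are lowest, and Acta2 highest, in the DKO and the TKO.

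The effect of losing MITF without TFEB was set against the same loss in 3 other backgrounds, with no library shared: MITF KO against parental cells (TFEB and TFE3 present), MITF/TFE3 DKO against TFE3 KO, and TKO against TFEB/TFE3 DKO. According to the study, every line without MITF here came from the same MITF KO cells, so these are not independent losses of MITF. With TFEB and TFE3 present, 395 genes rose (3.29%) and 359 fell (2.99%), together 6.28%. Without TFE3, 646 rose (5.38%) and 315 fell (2.62%), together 8%. Without both, 1068 rose (8.89%) and 843 fell (7.02%), together 15.9%. Of the 1119 genes that rose without TFEB, 215 also rose with both factors present, which is 19.2% of the first list and 54.4% of the second, 334 without TFE3 (29.8% and 51.7%) and 740 without both (66.1% and 69.3%). Of the 642 that fell, 136 (21.2% and 37.9%), 161 (25.1% and 51.1%) and 481 (74.9% and 57.1%) fell in these backgrounds. Genes that rose without TFEB but fell in the other background numbered 81, 11 and 50, and those that fell without TFEB but rose in the other 6, 11 and 0.

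The difference between the effects was tested in limma at 2-fold and an adjusted p under 0.05. All 3 differences share the 6 libraries of the cells without TFEB. Against the effect with TFEB and TFE3 present, it was higher without TFEB for 888 genes (7.39%) and lower for 571 (4.75%). Against the effect without TFE3, it was higher for 701 (5.84%) and lower for 658 (5.48%). Against the effect without both, it was higher for 321 (2.67%) and lower for 58 (0.483%), a count that was 109 without replicate 2 of the TFEB/TFE3 DKO. Of the genes that rose without TFEB, 635 (56.7%), 484 (43.3%) and 174 (15.5%) also had a higher effect by these 3 tests, and of those that fell, 298 (46.4%), 275 (42.8%) and 14 (2.18%) had a lower one. The effect without TFEB enters both the call and each difference. These overlaps are therefore partly fixed in advance and are no separate support.

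The interferon genes had the widest spread of medians among the 4 lists plotted over the backgrounds. With TFEB and TFE3 present, loss of MITF lowered 59 of the 66 interferon-stimulated genes and raised 0 (median -4.26), and without both factors it lowered 52 and raised 0 (median -2.15). Without TFE3 it raised 24 and lowered 0 (median 0.68). The effect without TFEB was higher than these for 63, 61 and 18 members, and lower for 0, 0 and 2. The effect on Ifi44 was higher by 9.66 than with both present and by 8.16 than without both (standard error 0.15 each, limma adjusted p = 7.1e-23 and 6.0e-21), values that depend on the pseudocount since Ifi44 was at or near 0 in the MITF KO and the TKO. Against the effect without TFE3 it was higher by 0.29 (standard error 0.15, limma adjusted p = 0.16), which was not called. Of the 19 class I genes, loss of MITF lowered 12 and raised 0 with both factors present (median -1.21), lowered 0 and raised 0 without TFE3 (median 0.25), and lowered 5 and raised 0 without both (median -0.20). The effect without TFEB was higher than these for 16, 10 and 12 class I members.

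The pigment and ATF4 genes showed another pattern. The effect on pigment genes was lower without TFEB for 17 of 28 against the background with both factors and for 12 against that without TFE3, while it was lower for 0 and higher for 4 against that without both. Tyr differed by -0.24 with TFEB and TFE3 present, -0.21 without TFE3, -2.95 without TFEB and -3.93 without both. Of the 30 ATF4 response genes, 16 had a lower effect without TFEB against each of the first 2 backgrounds, 0 were lower against that without both, and 4 were higher. Chac1 rose by 1.21 in the MITF KO and by 1.21 in the MITF/TFE3 DKO, and fell by 1.89 in the MITF/TFEB DKO and by 2.38 in the TKO, each against its own control line. The level of Acta2 was 164 ± 38.6 CPM in the DKO, 85.6 ± 13 CPM in the TKO, 2.11 ± 0.6 CPM in the MITF KO and 0.944 ± 0.371 CPM in the MITF/TFE3 DKO. That of Lgals3 was 0.19 ± 0.0966 CPM, 0.0143 ± 0.0248 CPM, 254 ± 19.5 CPM and 101 ± 8.58 CPM in the same order. For Acta2, Lgals3 and Chac1 the means of the MITF/TFEB DKO and the TKO, which both lack MITF and TFEB, were the 2 highest of the 8 lines for Acta2 and the 2 lowest for Lgals3 and Chac1.

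**Figure D4:**
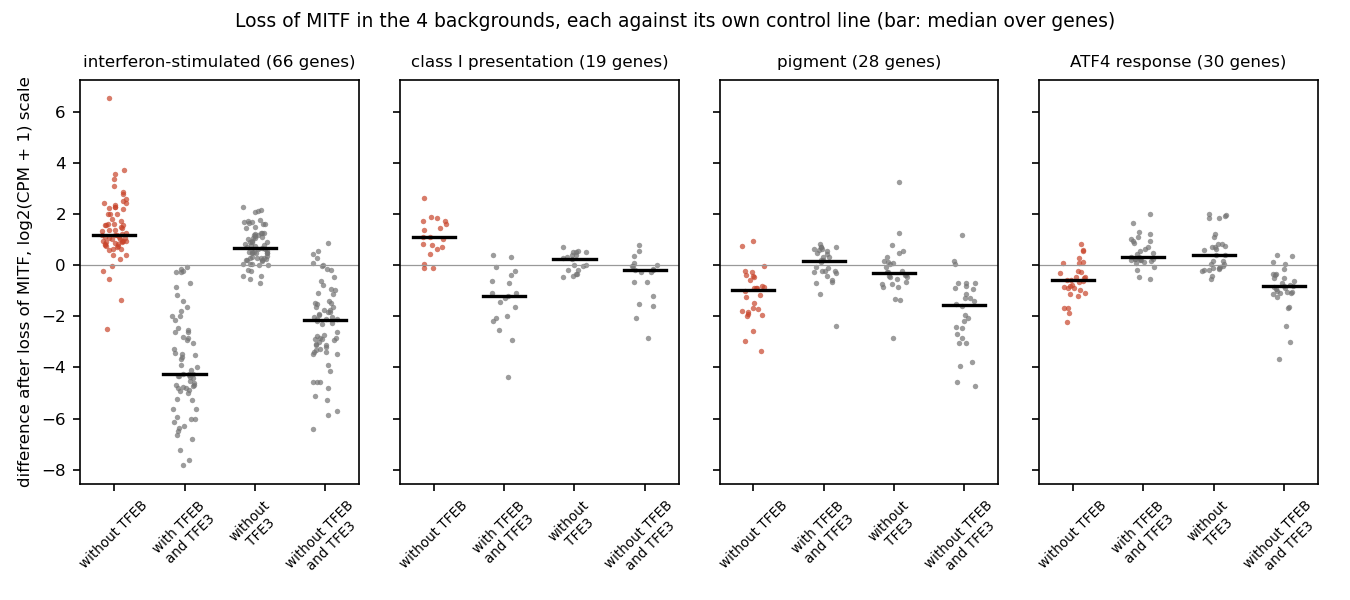
Difference after loss of MITF on the log2(CPM + 1) scale, 1 point per gene, for 4 gene lists in the 4 backgrounds (bars are medians over the genes). Interferon-stimulated genes have medians of 1.20 without TFEB, -4.26 with TFEB and TFE3, 0.68 without TFE3 and -2.15 without both, while the pigment medians are -0.96, 0.16, -0.32 and -1.54.

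Genes that lie near each other tended to move together. Over genes with a mean of at least 5 CPM, the median difference was -0.53 on chromosome 12 and -0.54 on chromosome 19, and 0.37 on chromosome 1, 0.34 on chromosome 10 and 0.29 on the X chromosome. Of 9316 such genes with a position, 2216 (23.8%) lay where the median of the 100 nearest genes was at least 0.3 from that of all genes, and these places held 33.9% of the called genes. The same chromosomes stood out in the TKO against the TFEB/TFE3 DKO, at -0.53 and -0.47 for chromosomes 12 and 19, while the loss of MITF with TFEB and TFE3 present gave -0.20 and -0.13. Set against their neighbours, 1006 genes were called higher and 489 lower, the median of the interferon-stimulated genes was 1.37 and that of the pigment genes -0.83. The part of the number of chromosome copies in these shifts was not tested.

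**Figure D5:**
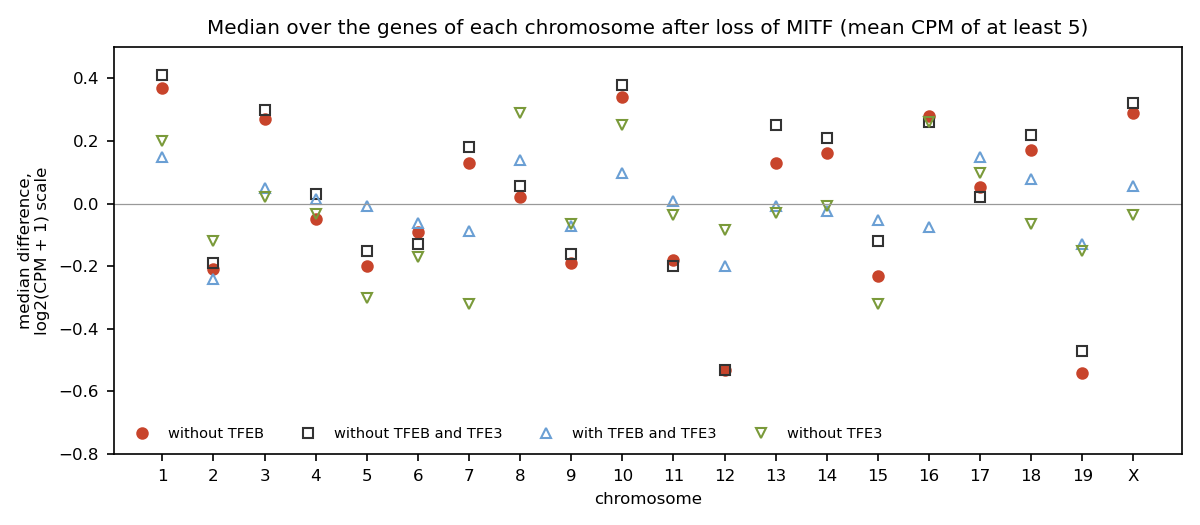
Median difference after loss of MITF over the genes of each chromosome with a mean of at least 5 CPM, on the log2(CPM + 1) scale, in the 4 backgrounds. Chromosomes 12 and 19 lie lowest without TFEB (-0.53 and -0.54) and without TFEB and TFE3 (-0.53 and -0.47).

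Of the listed markers of other cell types, 2 of 5 endothelial and 2 of 6 epithelial genes were in the table. Their summed level was 0.0796 to 0.706 CPM in the DKO and 12 to 19.9 in the TFEB KO for the endothelial genes, and 7.72 to 9.84 and 0.74 to 1.7 for the epithelial ones. Pecam1, an adhesion protein of endothelium, stood at 0.627, 0.126 and 0.0796 CPM in the DKO against 15.1, 10.9 and 17.6. Krt14, a keratin, was at 0 in the TFEB KO and at 8.98, 6.51 and 7.72 CPM in the DKO. These genes moved in both directions, and the part of other cells in the results was not tested.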

How the data were processed

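Messenger RNA of 24 libraries of B16-F10 cells, 3 of each of 8 lines, was sequenced from the 3′ end (QuantSeq Forward), and the MITF/TFEB DKO and TFEB KO libraries are compared here. Per the submitters' notes the reads were trimmed with Trim Galore 0.6.5 and mapped to mm39 with STAR 2.7.8a; the counting tool, annotation and gene filter are not given in the sources used here. The authors deposited 1 table of 12010 genes as a normalized signal, CPM scaled by edgeR's TMM factors (column totals 933263 to 1081081). The smallest step between values of a library gave back its whole reads (99.9% of values within 0.01 read), 18300902 to 26667877 reads on genes per library. Floors cover counting error only.

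Lines were compared with limma 3.58.1 in R 4.3.3 on log2(CPM + 1). One model of the line held the 24 libraries (16 residual degrees of freedom), with a variance trend and Benjamini-Hochberg adjustment over all genes. Fold changes on this scale understate low genes. The differences between effects are contrasts of the same fit. Single effects were called at 2-fold and p under 0.05 and differences at 2-fold and adjusted p under 0.05. Genes are named if they are among the 10 largest rises or falls with separated libraries, the 4 largest called members of a list, the 5 largest each way in a difference (mean CPM at least 5), the targeted genes, the study's MITF-bound list or Axl, 149 in all; Axl was taken out of that list, since the study states that it is not bound, after its value was seen, and Oasl1, Ifi27, Tgfb1 and the overlapping genes were named after their values were seen. The comparison and the lists were chosen with earlier results of these data known. Positions are from GENCODE vM39 (GRCm39) for 11659 genes. Alternatives were edgeR 4.0.16 on the reads, DESeq2 1.42.0, pseudocounts of 0.25 and 5, a filter of 5 CPM, a Benjamini-Hochberg threshold, size factors, a fit of the compared libraries alone, a constant prior variance, centring on 100 neighbours, the replicate block and each library left out. The steps were tested on simulated data. Some results are not reported here.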

Additional observations from a re-analysis of the deposited data

Results flagged for a closer look

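The results given here are those for which loss of MITF without TFEB differed from the same loss in another background by a test of the difference itself, in limma at 2-fold and an adjusted p under 0.05; single genes are the 5 largest in each direction with a mean of at least 5 CPM. Differences are on the log2(CPM + 1) scale, effect without TFEB minus effect in the other background. Against the background with TFEB and TFE3 present, 888 genes were higher and 571 lower. The largest were Ifi44 (9.66), Mndal (9.50), Ifi203 (9.49), Iigp1 (9.27) and Apol9b (8.73), all interferon-stimulated, and in the other direction Lgals3 (-7.22), Car14 (-4.94), Fam111a (-4.49), Eps8 (-4.01) and Gm24105 (-3.64). Gm24105, annotated as a miscellaneous RNA, differed by only 0.46 without TFEB, where its libraries overlapped, and rose by 4.10 with both factors present. Apol9b was not called without TFEB (0.90) and fell by 7.83 with both factors present. It has close paralogs with which it may share reads.

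Against the background without TFE3, 701 genes were higher and 658 lower. The largest were Acta2 (6.40), Sorbs2 (6.16), Pak3 (5.94), Ifi27l2a (5.75) and Gal3st2 (4.96), and in the other direction Lgals3 (-6.53), F11r (-5.17), Car14 (-4.65), Oca2 (-4.52) and Ly6g5c (-4.45). Oca2, an ion channel of the melanosome, fell by 1.25 without TFEB and rose by 3.27 without TFE3. F11r, a junction adhesion protein, fell by 3.12 and rose by 2.05 in the same 2 backgrounds.

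Against the background without TFEB and TFE3, 321 genes were higher and 58 lower. The largest were Ifi44 (8.16), Iigp1 (7.90), Mndal (7.51), Apol9b (7.30) and Gm4951 (6.94), and in the other direction the small Y RNA genes Rny3 (-3.49) and Rny1 (-3.43), Gm24105 (-2.86), Neurl1b (-2.38) and Rab7b (-2.35). Rny3 differed by 1.05 without TFEB, 3.40 with TFEB and TFE3 present and 4.53 without both. Without both factors, Gm24105 rose by 3.32 and Apol9b fell by 6.40. Y RNAs have no poly(A) tail of their own, and their part in a library primed on poly(A) was not tested.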

How the results depend on the processing

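The counts of genes depended most on how low genes were treated. With a pseudocount of 5, loss of MITF without TFEB raised 600 and lowered 372 genes, and the differences were 463 higher and 294 lower against the background with both factors, 346 and 308 against that without TFE3, and 170 and 23 against that without both. With only genes of at least 5 CPM, 700 genes rose, and the differences were 556 higher, 411 higher and 429 lower, and 195 higher and 35 lower, since fewer genes were tested. Leaving out 1 library gave 1099 to 1204 genes higher and 636 to 680 lower for the main comparison. For the difference from the background without both it gave 54 to 109 lower, with 109 when replicate 2 of the TFEB/TFE3 DKO was left out; the cause was not tested. The other counts over all genes stayed within 1.5 times of those reported. List counts were followed for part of the lists only, and those of them that moved by more stand beside their lists. Counts of the remaining lists could move as well. With a pseudocount of 5, Hpse (-0.70), Optn (-0.85) and Atp5k (-0.99) lost the call, each the only member of its list called lower. Replicate numbers did not pair the libraries: same-numbered libraries of the 2 lines had deviations correlated at 0.571, 0.286 and -0.448. Under a replicate block the main comparison had 1119 genes higher and 642 lower, and the differences were 889 and 570, 702 and 657, and 322 and 58. Of 133 named genes that were called, 0 changed direction and 34 lost the call under at least 1 alternative, 21 of them with a pseudocount of 5 and 20 when centred on neighbours; Trpm1, at -0.91 without replicate 1 of the TFEB KO, was among those lost when 1 library was left out.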
